A study of Danio rerio with 34 samples.

Results

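The data describe endothelial cells (ECs) of zebrafish embryos, sorted at 36 h post fertilization (hpf) out of the AGM, the aorta-gonad-mesonephros region, the stage at which some ECs of the dorsal aorta become hemogenic. The comparison sets 3 RNA-seq libraries of *dnmt1* mutant ECs (by the study's methods the s872 allele) against 3 libraries of sibling ECs, which are 6 of the 16 RNA-seq libraries and 6 of the 34 samples of the series. By the study's methods all embryos carried the transgenes kdrl:mCherry, which labels endothelium, and runx1:en-GFP, which labels hemogenic and early blood cells, and no library received a drug or other treatment. The sources used here do not say whether the siblings were wild-type, heterozygous or a mixture, or how many embryos made up a library. The other RNA-seq libraries are hemogenic ECs (HECs, 3 of each genotype) and HSPCs, the stem and progenitor cells of blood (2 of each genotype). Their levels are given only where a difference is set beside that of ECs. They also entered the filter on low counts and the estimate of spread behind the tests of ECs. Members were taken from the count table by column name, and the names match the sample titles. A description field of the labels gives the opposite genotype for each of these samples. If that field were right, every direction given here would reverse.

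Dnmt1 is the maintenance DNA methyltransferase. It is brought to newly replicated DNA by Uhrf1 and copies the methylation of the parental strand onto the daughter strand, so that cells without it lose methylation as they divide. ECs of the dorsal aorta keep their identity through Ets and Sox factors, Notch and VEGF signaling and, once blood flows, through the flow-induced factors Klf2a and Klf2b. Loss of methylation has been linked in other settings to expression of germline genes, to interferon responses and to the p53 pathway, and these groups were looked at with the endothelial ones.

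The 6 EC libraries held 3125048 to 6324042 counts on genes, and 21161 genes passed the filter on low counts. This filter ran over the RNA-seq libraries of all cell types, and 14828 genes passed it in the 6 EC libraries alone. Some tested genes were therefore at or near 0 CPM in every EC library, which lowers the shares over all genes given below. Levels are given as CPM (counts scaled to a common library size, with TMM factors), always in the order of replicates 1, 2 and 3, and 3 counts, taken here as the limit of detection of 1 library, correspond to 0.456 to 0.962 CPM. Same-numbered sibling and mutant libraries deviated together, so they were fitted as pairs, and fold changes are log2 values of mutant over sibling. A gene was called where its *P*-value, adjusted by Benjamini-Hochberg, was under 0.05 and its log2 fold change was at least 1 in size. It is described as nominally higher or lower where only its unadjusted *P*-value was under 0.05. No statement in the sources says that the libraries come from separate clutches, so *P*-values measure the spread between these libraries. In bulk libraries a lower level can mean fewer cells of a type or less RNA per cell.

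In mutant ECs the lowest *P*-values belonged to matrix genes such as *col12a1b* and *matn4*, which were higher in each pair, and the 6 subunit genes of the MCM2-7 helicase were also nominally higher. *klf2b* had a lower level in all 3 mutants than in any sibling, as did several genes near *dnmt1*. None of these passed edgeR's test over all genes, whereas DESeq2 called *col12a1b*, *matn4*, *mcm5*, *mcm6* and, near *dnmt1*, *cdc42ep4a* and *rac1b*. With edgeR's quasi-likelihood test 0 of the 21161 genes were called (0%), and the lowest adjusted *P*-value was 0.218, of *col12a1b*. With the fold minimum kept, 453 genes were nominally higher (2.14%) and 229 nominally lower (1.08%) in mutant ECs, and with no fold minimum 521 (2.46%) and 302 (1.43%). DESeq2 with the same pairs called 38 genes higher (0.18%) and 17 lower (0.0803%), and gave no adjusted *P*-value for 4103 genes. Its calls include some genes that were not nominally higher or lower in edgeR, such as *cryba2b* and *crybb1* (unadjusted edgeR *P*-values of 0.696 and 0.565). The fitted change of the median gene was 0.04 on the log2 scale. Of the 21161 genes, 11294 had a higher fitted level in mutants and 9867 a lower one. The mutant library lay above its paired sibling in all 3 pairs for 2440 genes (11.5%) and below it for 2105 (9.95%), and the groups did not overlap for 771 genes with mutants higher (3.64%) and 572 with mutants lower (2.7%). These shares are the background for the counts of named groups that follow.

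The excess of higher over lower genes varied with the libraries fitted. Sibling replicate 3 detected 18179 genes against 20292 to 20802 in the other 5 EC libraries. Of all tested genes 5415 were at 0 counts in it, against 3103 to 3431 in the other 5 EC libraries. At 0 counts in it were 255 of the 453 higher genes and 27 of the 229 lower genes. Genes chosen as higher in mutants tend to be low in siblings, so this contrast follows in part from the choice. Counts of higher genes at 0 in sibling replicates 1 and 2 are not given here. Without pair 3, 288 genes were nominally higher and 289 lower, and without sibling replicate 3 alone, in a fit with no pairing, 238 and 252. Without pair 1 the counts were 795 and 278, and without pair 2 they were 467 and 339. In fits with no pairing the counts were 340 and 314 without mutant replicate 2 and 345 and 220 without mutant replicate 3.

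Since no gene passed the adjusted threshold in edgeR, the main test, the values of single genes are given as descriptions. The 24 genes shown were the 12 higher and 12 lower genes with the smallest *P*-values among named genes with at least 5 CPM, a fold minimum of 1 on the log2 scale and the same direction in all 3 pairs. This direction is part of how they were chosen. DESeq2 called 17 of the 24.

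**Figure D1:**
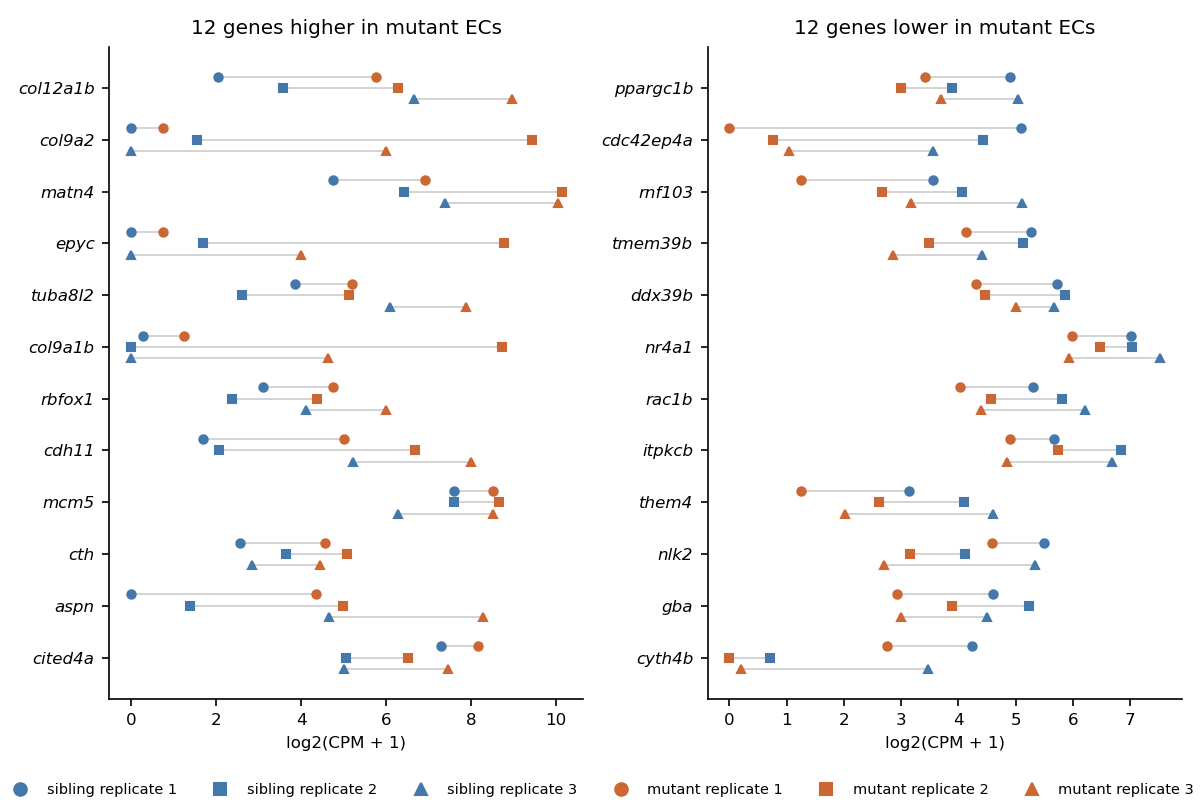
Levels of the 24 genes in each EC library, as log2(CPM + 1), with grey lines joining the sibling (blue) and mutant (orange) libraries of a pair. The matrix genes on the left are spread over many units of log2 within each genotype, whereas *mcm5*, *cth*, *ddx39b* and *rac1b* are separated by genotype.

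Of the 12 higher genes, 7 encode or accompany extracellular matrix. *col12a1b*, a collagen of tendons and fascia, was at 3.13, 10.9 and 100 CPM in siblings and at 53.2, 77.2 and 497 CPM in mutants. Each mutant was above its pair, and the fitted log2 fold change was 3.01 (SE, the standard error, 0.36). The groups overlapped because sibling replicate 3 was above mutant replicates 1 and 2. Each SE given here was derived from the test, as the size of the fold change over the square root of its F statistic. In fits with 1 library left out and no pairing the log2 fold change of *col12a1b* lay between 0.77 (without mutant replicate 3) and 4.92 (without sibling replicate 3). *matn4*, a matrix adaptor protein, was at 26.2, 85.0 and 166 CPM in siblings and at 120, 1122 and 1047 CPM in mutants, a log2 fold change of 2.86 (SE 0.40, adjusted *P*-value 0.239 by edgeR). *col9a2*, a collagen of cartilage and notochord sheath, was at 0, 1.92 and 0 CPM in siblings and at 0.687, 685 and 63.2 CPM in mutants. The high levels of *col9a2* were therefore found in mutant replicates 2 and 3 alone, and those of *epyc*, a small cartilage proteoglycan, had the same form, with 0, 2.24 and 0 CPM in siblings and 0.687, 438 and 14.9 CPM in mutants. *col9a1b* was at 425 CPM in mutant replicate 2, at 23.7 CPM in mutant replicate 3 and at 1.37 CPM or less in the other 4 libraries. *aspn*, a proteoglycan of tendon and periodontal tissue in mammals, was at 0, 1.60 and 24.2 CPM in siblings and at 19.5, 30.7 and 310 CPM in mutants. *cdh11*, a cadherin of mesenchymal cells, was at 2.24, 3.21 and 36.2 CPM in siblings and at 31.2, 102 and 255 CPM in mutants.

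In the list of mesenchyme, notochord and sclerotome genes 23 of 24 were tested, and 7 were nominally higher and 0 lower. The median log2 fold change was 1.53, against 0.04 over all genes. Of the 23, 10 were higher in all 3 pairs, against 11.5% of all genes. The erythroid (1.56), pronephros and gut (2.09), epidermal (1.49) and muscle lists (1.2) had high medians too, so a high median is not particular to this list. DESeq2 called 2 of them, *col1a1b* and *col9a1a*. *col1a1b*, a chain of type I collagen, was at 142, 165 and 789 CPM in siblings and at 396, 538 and 3457 CPM in mutants (log2 fold change 1.77, SE 0.40). *twist1a*, a mesenchymal transcription factor, was at 8.27, 27.6 and 79.4 CPM in siblings and at 30.2, 35.1 and 396 CPM in mutants. Without mutant replicate 3, and without the pairing, its fitted log2 fold change was −0.24. *tagln*, a smooth muscle actin-binding protein, was at 2.01, 0.641 and 0 CPM in siblings and at 5.04, 240 and 11.4 CPM in mutants, without overlap. *col9a1a* was at 0 CPM in all siblings and at 2.29, 45.8 and 4.71 CPM in mutants, which is at least 25.1-fold higher in mean level, taking 3 counts in each sibling library as the limit. *shhb*, a hedgehog ligand of the floor plate and notochord region, was at 0 CPM in all siblings and in mutant replicate 1 and at 5.35 and 10.9 CPM in mutant replicates 2 and 3, at least 7.73-fold higher by the same limit.

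A wider set of 42 matrix and mesenchyme genes was drawn up after these values were seen, and it contains the genes that prompted it. Of its 37 tested genes 36 had a higher fitted level in mutants, 16 were nominally higher and 0 were lower. Of the 16, 12 are among the 24 genes above or in the list of mesenchyme genes. Of the 22 tested genes that are in neither, 21 had a higher fitted level and 4 were nominally higher. Over all tested genes 11294 of 21161 had a higher fitted level. The 22 genes were also picked after the values were seen, so their count is not a separate measurement. The summed level of all 37 was 1857, 2097 and 5938 CPM in siblings and 3227, 9092 and 19392 CPM in mutants. *col2a1a* and *col11a2*, collagens of cartilage and notochord, were highest in mutant replicate 2, at 205 and 412 CPM. *hapln1a*, a link protein of cartilage matrix, was highest in mutant replicate 3, at 1390 CPM against 305 CPM in mutant replicate 2, as were *col1a2* at 3027 CPM and *postnb*, a matrix protein of fibroblasts, at 2704 CPM. The single exception was *col6a2*, which was at 12.5 CPM in sibling replicate 3 and at 0.229 CPM or less in the other 5 libraries. In HECs the median log2 fold change of the same set was 0.47 and in HSPCs 0.99.

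Among the marker lists of other cell types, that of mesenchyme and notochord was higher in each pair, and its genes are in part the same ones. The summed level of 6 markers of mesenchyme and notochord (*col1a1a*, *col1a2*, *twist1a*, *pdgfra*, *col2a1a* and *col9a1a*) was 124, 204 and 1139 CPM in siblings and 404, 889 and 3591 CPM in mutants, and 4 of the 6 were nominally higher. All 6 also belong to the list of mesenchyme, notochord and sclerotome genes, so this is not a separate measurement. Of the 5 tested markers of skeletal muscle, 6 of neural cells and 5 of epidermis 0 were nominally higher or lower. The neural markers summed to 333, 119 and 28.3 CPM in siblings and to 136, 200 and 152 CPM in mutants. Muscle markers summed to 27.3, 15.4 and 37.6 CPM and to 33.7, 10.9 and 120 CPM. Epidermis markers summed to 126, 33.35 and 18.3 CPM and to 83.4, 59.8 and 102 CPM. Their median log2 fold change was 1.93, against 1.61 for the mesenchyme and notochord markers. Whether the matrix genes were transcribed by ECs or came with other cells in the sort was not tested.

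**Figure D2:**
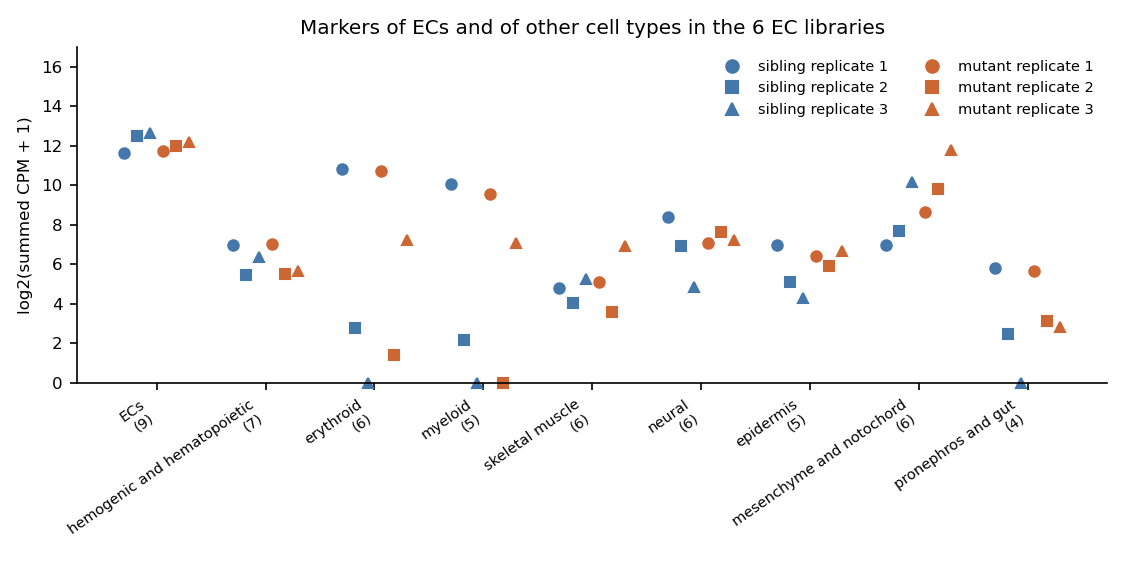
Summed level of the markers of each cell type in the 6 EC libraries, as log2(summed CPM + 1), with the number of markers in brackets. Markers of ECs are high in every library, red blood cell and myeloid markers are high in replicate 1 of both genotypes, and mesenchyme markers are highest in mutant replicate 3.

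The 9 EC markers summed to 3186, 5843 and 6371 CPM in siblings and to 3447, 4013 and 4641 CPM in mutants, so the sorted cells carried endothelial transcripts in each library. The 6 erythroid markers were at 1815, 5.77 and 0 CPM in siblings and at 1684, 1.63 and 148 CPM in mutants. *gata1a* and *alas2*, the defining erythroid regulator and heme enzyme, were at 0 CPM in all 6 libraries. The 5 myeloid markers were at 1084, 3.53 and 0 CPM in siblings and at 745, 0 and 136 CPM in mutants. Blood transcripts thus belonged mainly to replicate 1, whichever the genotype. In the wider erythroid list 4 of 24 tested genes were nominally higher (*fech*, *blf*, *hbbe3* and *klf1*) and 0 were lower. *blf*, a zinc finger factor of primitive blood, was at 224, 2.89 and 0 CPM in siblings and at 443, 9.07 and 2.43 CPM in mutants. Without mutant replicate 1, and without the pairing, the fitted log2 fold change was −3.77 for *blf* and −1.34 for *klf1*.

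The genes of the MCM2-7 helicase, which is loaded onto replication origins in G1 phase and unwinds DNA in S phase, were each nominally higher in mutant ECs. *mcm5* was at 191, 191 and 76.9 CPM in siblings and at 366, 401 and 363 CPM in mutants. All 3 mutants were above all 3 siblings, with a log2 fold change of 1.41 (SE 0.28, adjusted *P*-value 0.656 by edgeR), and leaving out 1 pair or library gave 0.97 to 1.66. *mcm7* was also separated, with 189, 87.2 and 125 CPM in siblings and 285, 223 and 236 CPM in mutants (log2 fold change 0.95, SE 0.25). *mcm6* was at 217, 157 and 78.2 CPM in siblings and at 317, 342 and 198 CPM in mutants, a log2 fold change of 1.004 (SE 0.25), with an overlap of mutant replicate 3 and sibling replicate 1. The log2 fold changes of *mcm3*, *mcm2* and *mcm4* were 0.94, 0.81 and 0.54, and their groups overlapped. *mcm3* was at 223, 181 and 36.6 CPM in siblings and at 218, 321 and 152 CPM in mutants, so that its difference came from pairs 2 and 3. The SEs of the 6 subunits were 0.22 to 0.36, and differences between subunits were not tested. Without pair 3 the log2 fold changes of *mcm5*, *mcm3*, *mcm2* and *mcm4* were 0.98, 0.37, 0.52 and 0.36. DESeq2 called *mcm5* and *mcm6*.

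The MCM genes were the only nominally higher ones in the replication list. Of its 43 tested genes 6 were nominally higher (*mcm2* to *mcm7*) and 1 was lower, and the median log2 fold change was 0.19. The lower gene was *pold1*, the catalytic subunit of DNA polymerase delta, at 46.5, 29.2 and 15.16 CPM in siblings and 15.12, 22.1 and 6.99 CPM in mutants. *pcna*, the sliding clamp, was at 772, 534 and 525 CPM in siblings and at 692, 627 and 1131 CPM in mutants. Genes of the GINS complex and *cdc45*, which join MCM2-7 in the active helicase, had fitted log2 fold changes from −0.30 to −0.15. Of the 43 genes 12 were higher in all 3 pairs and 3 were lower, against 11.5% and 9.95% of all genes.

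Genes of mitosis gave a different picture, with 0 of 42 tested nominally higher or lower, a median log2 fold change of −0.35 and 9 with a higher fitted level. Their median difference was −1.18 in pair 1, 0.39 in pair 2 and −0.06 in pair 3. *mki67*, a marker of cycling cells, was at 472, 235 and 152 CPM in siblings and at 151, 443 and 180 CPM in mutants, and *top2a* at 223, 141 and 256 CPM and at 66.7, 252 and 227 CPM. The mitotic genes were therefore low in mutant replicate 1, in which *mcm5* was as high as in the other mutants.

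In HECs the log2 fold changes of the 6 MCM genes lay between −0.18 and 0.14 and in HSPCs between −0.16 and 0.27. The change in ECs minus that in HECs was 1.27 for *mcm5*, with a *P*-value of 0.00799 before and 1 after adjustment in edgeR. For *mcm6* and *mcm7* it was 1.13 and 1.11, with *P*-values of 0.00936 and 0.0113 before and 1 after adjustment. The other unadjusted edgeR *P*-values against HECs were 0.0364 for *mcm2*, 0.0511 for *mcm3* and 0.0901 for *mcm4*. Between ECs and HSPCs the difference was 1.26 for *mcm5*, with 0.0149 before and 1 after adjustment. The other unadjusted values there were 0.0145 for *mcm6*, 0.119 for *mcm7*, 0.0890 for *mcm2*, 0.162 for *mcm3* and 0.110 for *mcm4*. The MCM genes were named for their changes in ECs, so these differences are not a separate measurement. Across all genes 0 passed the test of a difference in change between ECs and HECs (0%), and 0 between ECs and HSPCs (0%). The nominal counts in edgeR, with the fold minimum, were 691 and 628 genes. DESeq2 was not run on these differences.

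**Figure D3:**
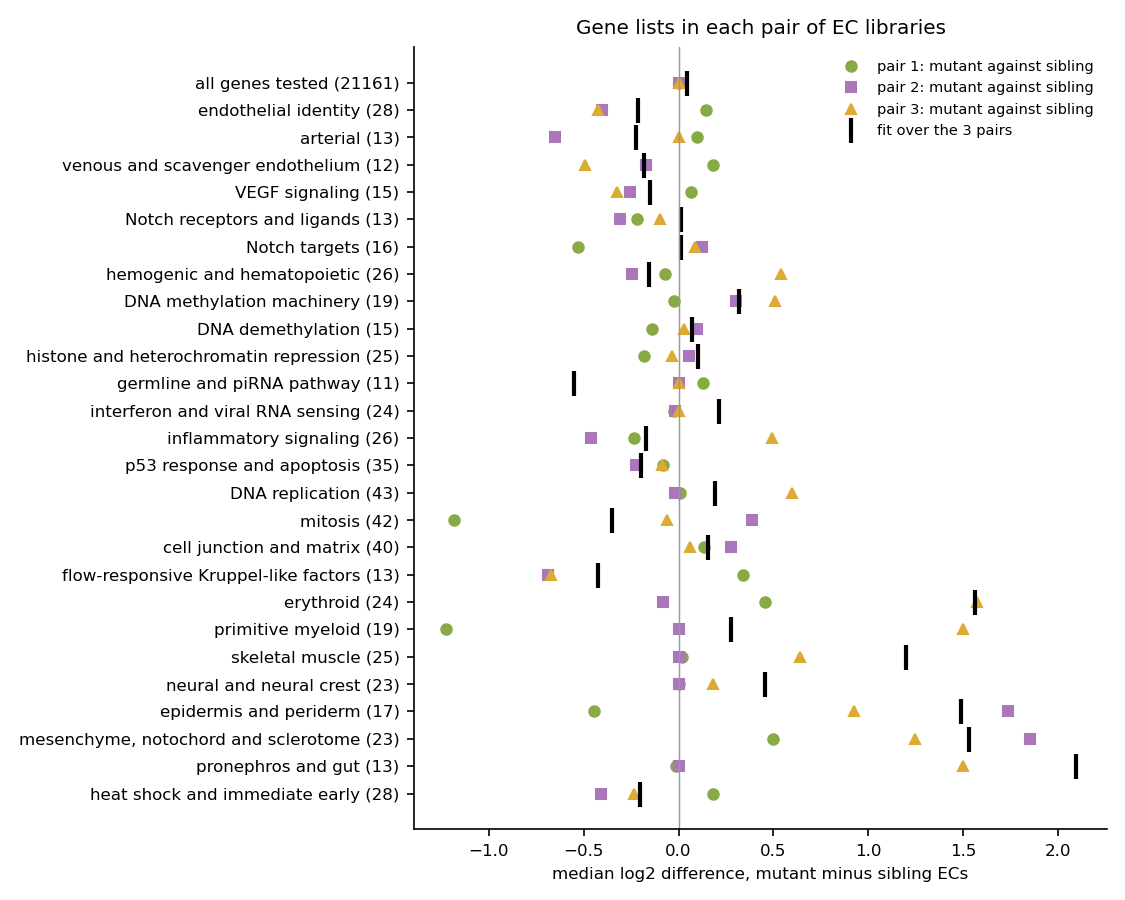
Median log2 difference of each gene list in each pair of EC libraries (circle, pair 1; square, pair 2; triangle, pair 3) and in the fit over the 3 pairs (black bar), with the number of tested genes in brackets. Mesenchyme genes are above 0 in all 3 pairs, at 0.50, 1.85 and 1.25, whereas endothelial genes are above 0 in pair 1 and below 0 in the others.

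Of 28 tested genes of endothelial identity 0 were nominally higher or lower, 22 had a lower fitted level in mutants and the median log2 fold change was −0.21. It was 0.15 in pair 1, −0.40 in pair 2 and −0.42 in pair 3. *fli1a*, an Ets factor of endothelium, was at 833, 1436 and 1340 CPM in siblings and at 944, 883 and 906 CPM in mutants. *kdrl*, the VEGF receptor whose promoter drives the sorting transgene, was at 282, 704 and 615 CPM in siblings and 296, 518 and 586 CPM in mutants. *erg*, another Ets factor, was the 1 gene of this list whose groups did not overlap, at 299, 273 and 371 CPM in siblings and 222, 236 and 206 CPM in mutants. The arterial list (13 tested, median −0.23) and the venous and scavenger list (12 tested, median −0.18) each had 0 nominally higher or lower genes. *egfl7*, a secreted endothelial protein, was at 419, 1506 and 2035 CPM in siblings and 510, 879 and 1250.4 CPM in mutants. *mrc1a* and *stab2*, scavenger receptors of venous and lymphatic endothelium, were at 884, 1149 and 964 CPM against 726, 1000.4 and 569 CPM and at 807, 785 and 958 CPM against 873, 625 and 552 CPM. All 3 overlapped. *aqp1a.1*, an aquaporin high in arterial ECs, was at 1472, 2232 and 5493 CPM in siblings and at 2231, 1643 and 5378 CPM in mutants, so its level was highest in replicate 3 of both genotypes.

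*klf2b*, induced by blood flow, was nominally lower in mutant ECs and did not overlap, at 2055, 2045 and 2223 CPM in siblings and at 1469, 921 and 1328 CPM in mutants. Its log2 fold change was −0.79 (SE 0.34, adjusted *P*-value 1 by edgeR), and leaving out a pair or library gave −0.94 to −0.59. *klf2a*, the paralog at a lower level, was at 46.1, 74.7 and 97.3 CPM in siblings and at 44, 28.4 and 38.1 CPM in mutants, also without overlap (log2 fold change −0.94). Of 13 tested Kruppel-like factors 11 had a lower fitted level, and the median was −0.43. The median difference was 0.34 in pair 1, −0.69 in pair 2 and −0.67 in pair 3. In HECs the log2 fold change of *klf2b* was 0.34 and in HSPCs −1.05. The change in ECs minus that in HECs was −1.14, with a *P*-value of 0.0405 before and 1 after adjustment in edgeR.

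Of 13 Notch receptors and ligands 1 was nominally lower and 0 were higher, with a median log2 fold change of 0.01. It was *jag1b*, a Jagged ligand, at 51.4, 32.4 and 29.1 CPM in siblings and 29.3, 21.9 and 9.11 CPM in mutants. *notch1a*, among the 3 highest of these genes, was the 1 whose groups did not overlap, at 173, 179 and 234 CPM in siblings and 148, 131 and 153 CPM in mutants (log2 fold change −0.43, not nominal). *notch1b* was at 317, 323 and 431 CPM in siblings and at 384, 214 and 303 CPM in mutants. *dll4*, the ligand of arterial tip cells, was at 441, 771 and 909 CPM and at 471, 420 and 849 CPM. Among 16 tested targets 1 was nominally lower, *nrarpa*, which feeds back on the Notch receptor, at 34.0, 114 and 87.7 CPM in siblings and 14.2, 53.3 and 62.9 CPM in mutants. A further row of *nrarpa*, given below and not among the 16, had a higher level and was higher in mutants in pairs 1 and 3. *hey2*, an arterial target, was at 52.1, 76.3 and 148 CPM in siblings and 48.3, 43.3 and 101 CPM in mutants. Other members had a higher fitted level in mutants, 7 of the 13 receptors and ligands and 8 of the 16 targets. The median log2 fold change of the targets was 0.01. *notch3* had a log2 fold change of 1.59 (SE 0.84, not nominal), with the mutant lower in pair 1 and higher in pairs 2 and 3. It lies at −15 genes from *dnmt1* in gene order, where a minus sign means before *dnmt1*. *her15.1* and *nrarpb*, with *hey2* the 3 highest of the 16 targets, had 0.97 (SE 2.03) and 0.05 (SE 0.38), and both overlapped.

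The *dnmt1* transcript was at 108, 67.7 and 43.8 CPM in sibling ECs against 106, 117 and 77.6 CPM in mutant ECs, with a log2 fold change of 0.53 (SE 0.25, adjusted *P*-value 1 by edgeR). The groups overlapped, so the transcript level does not check the genotype labels. *uhrf1* was at 162, 124 and 105 CPM in siblings and at 161, 158 and 178 CPM in mutants. Of 19 tested genes of the DNA methylation machinery 1 was nominally higher, *cdca7b*, a partner of the remodeler Hells in heterochromatin, at 64.4, 21.2 and 42.3 CPM in siblings and 69.9, 91.6 and 63.2 CPM in mutants. The median of the list was 0.32. The de novo methyltransferase *dnmt3ba* was at 271, 55.5 and 55.3 CPM in siblings and at 335, 100 and 66.8 CPM in mutants, higher in each pair.

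Of 38 germline and piRNA pathway genes 11 passed the filter on low counts and 0 of these were nominally higher or lower. *ddx4*, the germ cell helicase Vasa, was at 3.58 CPM in sibling replicate 1 and at 0 CPM in the other 5 libraries. The most abundant member was *nanos1*, at 136, 103 and 78.8 CPM in siblings and 148, 154 and 132 CPM in mutants. Of 24 tested interferon and viral RNA sensing genes 2 were nominally lower and 0 higher. They were *ifih1*, a sensor of double-stranded RNA, at 5.59, 2.24 and 2.05 CPM in siblings and 0, 0.698 and 0 CPM in mutants, and *tap1*, a peptide transporter, at 3.35, 6.09 and 0 CPM and 0, 0.698 and 0 CPM. Both are near the detection limit. *isg15*, an interferon-induced modifier, was lower in each pair, at 7.83, 131 and 19.0 CPM in siblings and 4.81, 53.3 and 7.14 CPM in mutants. Other members went the other way: 13 of the 24 interferon and viral RNA sensing genes had a higher fitted level in mutants. The median log2 fold change of this list was 0.21. Of 35 tested p53 and apoptosis genes 0 were nominally higher or lower and the median was −0.20. *cdkn1a*, the cell cycle inhibitor that p53 induces, was at 31.3, 27.3 and 7.74 CPM in siblings and at 45.6, 16.3 and 0.911 CPM in mutants, and *mdm2* at 18.1, 6.09 and 6.63 CPM and 15.12, 5.12 and 3.34 CPM.

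Further lists gave few genes. The VEGF list (15 tested, median −0.15), the histone and heterochromatin list (25 tested, median 0.10), the DNA demethylation list (15 tested, median 0.07) and the inflammatory list (26 tested, median −0.17) had 0 nominally higher or lower genes. The junction and matrix list had 1 of 40 nominally higher, *cldnb*, an epithelial claudin that DESeq2 also called, at 69.1, 67.0 and 0 CPM in siblings and 170, 441 and 12.6 CPM in mutants. The list of heat shock and immediate early genes had 1 of 28 nominally lower, *egr3*, an immediate early transcription factor, at 55.5, 39.4 and 65.1 CPM in siblings and 50.9, 27.7 and 21.0 CPM in mutants. *fosab*, which dissociation of tissue can induce, was at 6410, 11391 and 6011 CPM in siblings and 5724, 8812 and 4968 CPM in mutants. In the hemogenic and hematopoietic list 1 of 26 genes was nominally higher, *csf1ra*, and 2 were lower, *cbfb* and *myb*. *cbfb*, the partner of Runx1, was at 92.8, 69.6 and 46.0 CPM in siblings and at 55.0, 22.3 and 35.1 CPM in mutants. *myb*, a factor of blood stem cells, was at 26.6, 1.60 and 6.79 CPM in siblings and 24.3, 0.465 and 0.759 CPM in mutants. *csf1ra*, a receptor of macrophages and pigment cells, was at 0, 0 and 1.90 CPM in siblings and 0.917, 0.465 and 12.1 CPM in mutants, close to the detection limit in 5 of the 6 libraries. *runx1*, which marks hemogenic endothelium, was at 12.5, 21.8 and 19.7 CPM in siblings and 20.6, 8.84 and 16.9 CPM in mutants, with overlap. Lists of skeletal muscle (25 tested, median 1.2), neural (23 tested, median 0.46) and epidermal genes (17 tested, median 1.49) had 0 nominally higher or lower genes. With genes at 0 in all libraries of 1 genotype set to the bound of 3 counts the muscle median was 0.82. The lists of myeloid (19 tested, median 0.28) and of pronephros and gut genes (13 tested, median 2.09) had 1 nominally higher gene each, *csf1ra* and *cldnc*.

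Of the 12 lower genes, *nr4a1*, an immediate early nuclear receptor, was at 127, 130 and 184 CPM in siblings and at 62.6, 88.2 and 60.3 CPM in mutants (log2 fold change −1.06, SE 0.28). *ddx39b*, an RNA helicase of splicing and mRNA export, was at 51.9, 57.4 and 49.9 CPM in siblings and at 18.8, 21.2 and 31.1 CPM in mutants (log2 fold change −1.19, SE 0.30). *ppargc1b*, a coactivator of mitochondrial genes, was at 28.8, 13.8 and 31.7 CPM in siblings and at 9.62, 6.98 and 12 CPM in mutants. All 3 had no overlap between the genotypes. *gba*, the lysosomal glucocerebrosidase, was at 23.3, 36.6 and 21.5 CPM in siblings and at 6.65, 13.7 and 6.99 CPM in mutants, and *rnf103*, a ubiquitin ligase, at 10.7, 15.7 and 33.3 CPM and at 1.37, 5.35 and 8.05 CPM. *itpkcb*, an inositol trisphosphate kinase, overlapped slightly, at 49.6, 114 and 101 CPM in siblings and 28.9, 52.1 and 27.6 CPM in mutants. The levels of *tmem39b*, *them4*, *nlk2* and *cyth4b* are in the plot of the 24 genes. Among the higher genes that are not of matrix, *cth*, the cystathionine gamma-lyase of cysteine synthesis, was at 4.92, 11.5 and 6.16 CPM in siblings and at 22.7, 32.8 and 20.8 CPM in mutants, without overlap (log2 fold change 1.81, SE 0.36). *rbfox1*, a splicing regulator, was at 7.60, 4.17 and 16.3 CPM in siblings and at 26.1, 19.8 and 63.2 CPM in mutants. *cited4a*, a coactivator that binds CBP and p300 in mammals, was at 157, 32.1 and 31.1 CPM in siblings and at 286, 89.8 and 175 CPM in mutants, higher in each pair but overlapping. *tuba8l2*, a tubulin gene, was highest in replicate 3 of both genotypes, at 67.0 CPM in the sibling and 233 CPM in the mutant.

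The last 2 of the 12 lower genes, *cdc42ep4a* and *rac1b*, were also lower in the other cell types and lie on the chromosome of *dnmt1*. *cdc42ep4a*, an effector of the GTPase Cdc42, was at 33.1, 20.5 and 10.7 CPM in sibling ECs against 0, 0.698 and 1.06 CPM in mutant ECs. In HECs it was at 19.7, 10.3 and 22.8 CPM and at 0.450, 1.15 and 1.14 CPM, and in HSPCs at 18.2 and 5.52 CPM and at 1.09 and 2.32 CPM. *rac1b*, a Rac GTPase, was at 38.5, 54.8 and 73.0 CPM in sibling ECs against 15.4, 22.8 and 20 CPM in mutant ECs, with log2 fold changes of −1.49 in ECs, −1.66 in HECs and −1.73 in HSPCs. In the gene order of the reference assembly GRCz12tu, which is not the build of the counts, *cdc42ep4a* lies at −73 genes from *dnmt1* and *rac1b* at 43 genes, where a minus sign means before *dnmt1*. Other genes described above also lie on this chromosome. Among them are the higher genes *mcm5* and *rbfox1*, at −1089 and −1029 genes, and the lower *pold1*, at −1360 genes. Whether their differences are linked to the mutation was not tested.

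Genes were then sought, after these values were seen, whose sibling and mutant libraries did not overlap in the same direction in ECs, in HECs and in HSPCs. There were 13 rows of the count table, of which 9 were lower and 4 higher in mutants. They include numbered further rows of a gene, so that *vat1* is among the higher and *vat1_1* among the lower ones, and *ndel1b_1* is a further row of a gene near *dnmt1*. The 3 comparisons share no library, but libraries of the same number may come from the same embryos. Of the 9 lower rows 7 were on the chromosome of *dnmt1*, where 885 of the 21161 tested genes (4.18%) were placed, and all 7 lay within 100 genes of it in gene order. Besides *cdc42ep4a* and *rac1b* the 7 were *pgls*, an enzyme of the pentose phosphate pathway, *epn3a*, *stk19*, *si:ch211-74m13.1* and LOC100537840. *pgls* was at 19.7, 12.2 and 18.5 CPM in sibling ECs against 0.458, 6.28 and 0.456 CPM in mutant ECs, and in HECs at 15.06, 11.8 and 29.5 CPM and at 1.80, 0 and 0.0947 CPM. Of the 4 higher rows 1 was placed on that chromosome, *vat1*, at −1271 genes. The numbered rows *ndel1b_1* (higher) and *vat1_1* (lower) were not placed, although *ndel1b* and *vat1* are on that chromosome. The number of higher rows there may therefore be too low. For 5 of the 13 genes (*cdc42ep4a*, *pgls*, LOC100537840, *stk19* and LOC101884738) all 8 mutant libraries were on 1 side of all 8 sibling libraries. LOC101884738, which lies on another chromosome, was at 0 CPM in all 8 sibling libraries and between 0.655 and 15.3 CPM in the mutant ones.

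**Figure D4:**
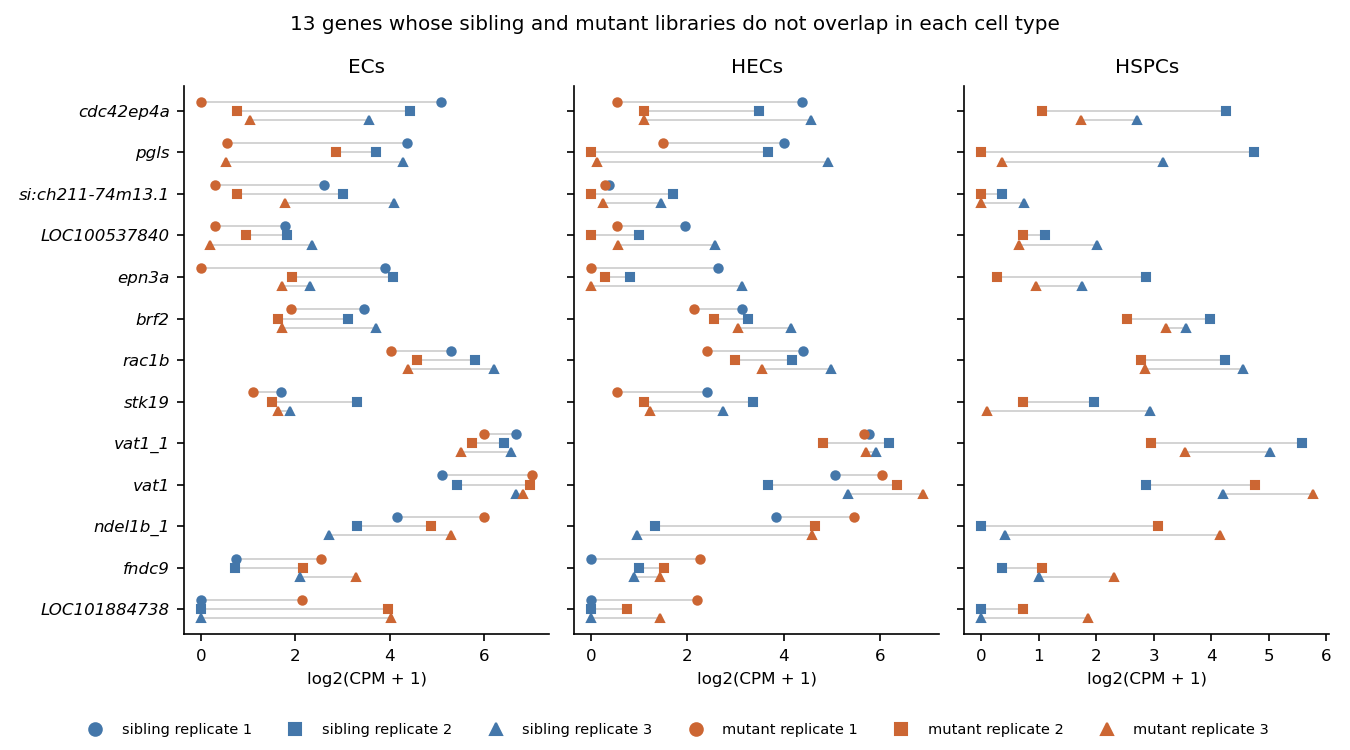
Levels of the 13 genes in ECs, HECs and HSPCs as log2(CPM + 1), with sibling libraries in blue and mutant libraries in orange, joined within a pair. In each panel the 9 upper genes have mutants on the left and the 4 lower genes have mutants on the right, as the choice of these genes requires.

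Counts within 20 to 400 genes of *dnmt1* on either side were then looked at. Within 100 genes, 100 genes were tested, and in ECs the groups did not overlap for 11 with mutants lower (11%) and for 4 with mutants higher (4%), against 2.7% and 3.64% of all genes. The 11 include the 7 genes that prompted the count, and without these 4 of 93 genes were lower (4.3%). More than 400 genes away on the same chromosome the counts were 18 lower and 22 higher of 590 genes (3.05% and 3.73%), and within 400 genes they were 19 and 10 of 294 (6.46% and 3.40%). The 19 lower genes again include the 7 that prompted the count, so the share of 6.46% is not a separate measurement. Among the nearest 20 genes on each side 24 were tested. Of these, *trip10a*, *si:ch73-208g10.1*, *si:ch211-74m13.1* and *mgrn1b* were nominally lower and *rdh8a* was nominally higher. *trip10a*, another effector of Cdc42, was at 87.9, 95.6 and 118 CPM in sibling ECs against 54.8, 49.5 and 72.0 CPM in mutant ECs. *mgrn1b*, a ubiquitin ligase, was at 41.1, 45.5 and 106 CPM in siblings and at 20.9, 35.8 and 35.2 CPM in mutants. Sequence variants linked to the mutation and effects of its loss cannot be told apart for genes so close to *dnmt1*, which include *notch3* and *hbbe1.1*.

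**Figure D5:**
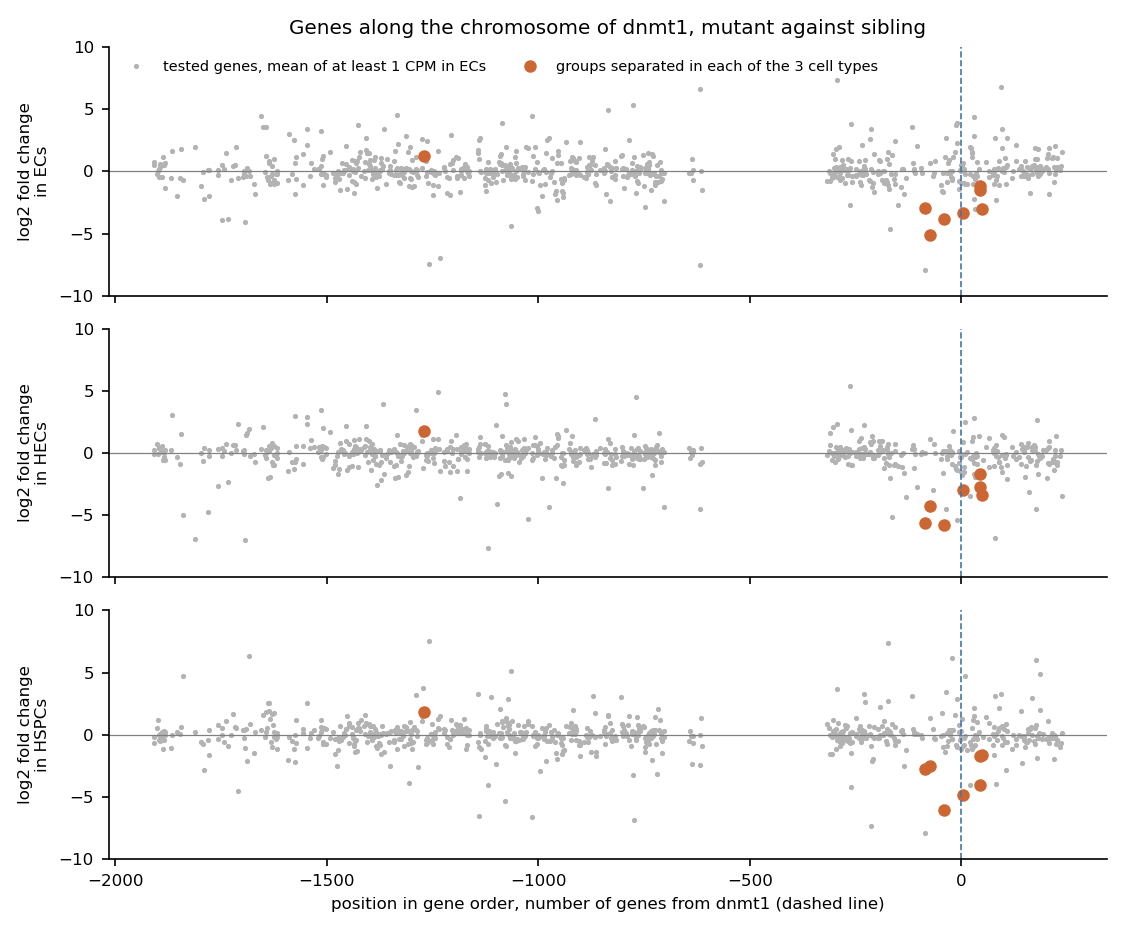
Log2 fold change of genes on the chromosome of *dnmt1* in ECs, HECs and HSPCs, by position in gene order from *dnmt1* (dashed line), for tested genes with a mean of at least 1 CPM in ECs (grey). The 7 lower genes that separated the genotypes in each cell type (orange) lie within 100 genes of *dnmt1*, and the 1 higher gene that was placed here lies at −1271 genes. Rows without a place in gene order are not shown.

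Some of these genes have a further row in the count table under the same name with a number added, and the rows moved in opposite directions. *cdc42ep4a_1* was at 17.7, 4.49 and 6.48 CPM in sibling ECs against 14.2, 35.4 and 21.4 CPM in mutant ECs, and with both rows summed the gene was at 50.8, 25.0 and 17.2 CPM and at 14.2, 36.1 and 22.5 CPM, with overlap. *ndel1b*, at −136 genes from *dnmt1*, was at 74.5, 34.6 and 101 CPM in sibling ECs against 24.5, 13.03 and 19.1 CPM in mutant ECs, whereas *ndel1b_1* was at 16.8, 8.98 and 5.53 CPM and at 63.0, 28.4 and 38.4 CPM. Their sum was 91.2, 43.6 and 106 CPM in siblings and 87.5, 41.4 and 57.6 CPM in mutants. For *epn3a* and *vat1* the EC sums overlapped too. The levels of these 4 genes are therefore uncertain, since reads may have been split between the copies, which was not tested. *col9a1b*, *nr4a1*, *pold1*, *cbfb*, *myb*, *nrarpa*, *col2a1a*, *hbbe3*, *kdrl* and *stab2* also have 1 further row each, so the same doubt holds for their levels. *nrarpa_1*, for example, was at 194, 125 and 123 CPM in sibling ECs against 279, 97.2 and 179 CPM in mutant ECs, and *nr4a1_1* at 44.7, 105 and 72.5 CPM against 46.7, 86.3 and 55.9 CPM. *pgls*, *rac1b*, *stk19*, *si:ch211-74m13.1* and LOC100537840 had no tested row of that kind. Numbered rows make up 2391 of the 21161 tested.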

How the data were processed

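ECs, HECs and HSPCs were profiled by RNA-seq, in 16 libraries, 6 of them of ECs. The authors aligned reads to GRCz11 with HISAT2 2.2.1 and counted them on genes with HTSeq 0.12.4, per the study's methods and the submitters' processing notes, and deposited the counts without normalization in a table of 47048 gene rows. The annotation and strand setting are not given in the sources used here. The labels describe a 3′-biased single-cell protocol and the study's methods 500 sorted cells a library. The 5 closing tallies of reads given to no gene (48.7% to 55.2% of the reads of an EC library) were left out. Columns were assigned by name, and 0 columns were left unassigned. A table of the authors' own fold changes and the lists of methylation tiles were not used.

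All 16 libraries were fitted with edgeR 4.0.16 in R 4.3.3 (TMM, filterByExpr, robust quasi-likelihood), with a block for each cell type and replicate number and a genotype coefficient for each cell type, leaving 5 residual degrees of freedom. Same-numbered EC libraries deviated together from their group means (correlations of 0.319, 0.194 and 0.256, against −0.219 to −0.0510 for other pairs), so the numbers were treated as pairing them. Deviations within a genotype cancel out, so positive values for same-numbered libraries make those of other pairs negative on average. The negative values are therefore no further evidence of pairing. The pairing rests on this check and on the column numbers. DESeq2 1.42.0, other normalizations, filters, blocks and left-out libraries were alternatives, and the fit of ECs alone without a block was added after the data were seen. Summaries and plots used Python 3.11.15 with pandas 2.3.3 and matplotlib 3.10.9. The code of the fits was tested on simulated data with large changes and a smaller spread between libraries than in these data. That test does not measure how many real differences the fits could find here. Depth and its precision are given with the results, and the detection limit of 3 counts covers counting error only. Genes were named by *P*-value as stated with the results, in each list those nominally higher or lower, and from each list's 3 highest in CPM and other members examples picked after their values were seen. The remaining members of the 3 highest are not described. The members and lists were chosen with earlier results of these data known. Promoter and protein sequences were not analysed here, nor were 13 mitochondrially encoded genes, whose names matched no row.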

Additional observations from a re-analysis of the deposited data

How the results depend on the processing

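The count of called genes was 0 with RLE size factors, with no fold minimum, in the 6 EC libraries alone, with no replicate block or a replicate number shared by all cell types, and without any 1 pair or library (lowest and highest 0). With no filter on low counts edgeR called 7 genes, all higher. They were *col12a1b*, *matn4* and, each with nearly all its counts in 1 mutant library, sst1.2, sst2, *cmn*, *zmp:0000000760* and *epyc*. With at least 10 counts in every EC library 2 genes were called, *col12a1b* and *matn4*. With the replicate block DESeq2 gave 55 calls at the adjusted threshold of 0.05 and 739 at 0.5, the threshold of the study's methods, and without the block 34 and 148. The 682 nominally higher or lower genes became 244 with at least 10 counts in every EC library, 312 with the replicate block in the 6 EC libraries alone, 215 there without it and 1200 with DESeq2 and the block, and ranged from 490 without sibling replicate 3 to 1073 without pair 1. The difference between the changes in ECs and HSPCs called 2 genes with no filter, *tnfaip2b* and sst1.2. Fitted directions reversed only in fits with no replicate block that left out 1 library. The lowest and highest log2 fold changes in such fits were −0.010 and 7.90 for *csf1ra*, −4.19 and 0.96 for *myb*, −3.77 and 6.88 for *blf*, −1.34 and 4.80 for *klf1*, −0.24 and 3.12 for *twist1a*, and −2.98 and 0.085 for *si:ch73-208g10.1*. The reversals came without mutant replicate 3 for *csf1ra* and *twist1a*, without mutant replicate 1 for *blf* and *klf1*, without sibling replicate 1 for *si:ch73-208g10.1*, and without sibling replicate 1 or mutant replicate 2 or 3 for *myb*. The causes of these shifts were not tested. Genes at a few counts in an EC library, among them *ifih1*, *tap1* and *csf1ra*, are limited by depth.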

Other observations

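Single EC libraries held abundant transcripts that the other 5 lacked. Mutant replicate 1 had 4334 counts of sst1.2 and 3552 of sst2, which encode somatostatin hormones of the brain and pancreas, against at most 4 counts elsewhere. Mutant replicate 2 had 2215 counts of *cmn*, a notochord sheath gene, and mutant replicate 3 had 96, with 0 in the other libraries. *hbbe3*, a globin gene, was at 165 CPM in mutant replicate 1 and at 3.34 CPM or less in the other EC libraries, although sibling replicate 1 carried other globins, such as *hbbe1.1* at 505 CPM and *hbae3* at 739 CPM. *hbbe1.1* lies at 20 genes from *dnmt1* in gene order. Globin genes are near-identical, so reads may have been split between them.

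Of the nominally higher genes with the fold minimum, 126 of 453 were at 0 counts in all 3 sibling libraries, and of the lower genes 46 of 229 were at 0 in all mutant libraries. The median fitted change of the 453 higher genes was −0.11 in HECs and 0.04 in HSPCs, and that of the 229 lower genes was −0.03 in HECs and −0.09 in HSPCs.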
